A study of Mus musculus with 5 samples.

Results

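The Toll-like receptors are the mouse family of membrane receptors that recognise microbial lipids, proteins and nucleic acids. The 10 members described here (Tlr1, Tlr2, Tlr3, Tlr4, Tlr6, Tlr7, Tlr8, Tlr9, Tlr12 and Tlr13) were taken by gene symbol from the authors' deposited table of 24982 rows, 12311 of which the authors tested. All 10 had a row of their own with that symbol alone, and all 10 were tested. The table compares macrophages taken from tumors of the 9609 line, a mouse MCA fibrosarcoma. The MEK1-low group (2 libraries) came from tumors titled 9609 MEK1-low, and the labels give its treatment as MEK1-low (GFP) exosomes. The MEK1-hi group (3 libraries) came from tumors titled 9609 MEK1-hi, and the labels give its treatment as MEK1-hi exosomes. The authors' deposited table names these groups GFP_exo and MEK1_exo. The labels used here do not settle whether the MEK1 level describes the tumor cells or only the exosomes. Exosomes are small vesicles that cells release, and MEK1 is a kinase of the ERK pathway. Both groups rest on this single tumor line, and the labels used here name no strain, sex or age for the mice. The labels do not state that the libraries are separate animals, so the p-values reflect the spread among these libraries alone, and that spread may be technical. Differences are given as MEK1-hi over MEK1-low throughout.

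A Toll-like receptor joins an outer leucine-rich domain, which binds the ligand, to an inner TIR domain, which recruits the adaptors MyD88 or TRIF. Receptors at the cell surface (Tlr1, Tlr2, Tlr4 and Tlr6 here) recognise bacterial lipopeptides and lipopolysaccharide. Receptors in endosomes (Tlr3, Tlr7, Tlr8, Tlr9, Tlr12 and Tlr13 here) depend on the chaperone Unc93b1 and mostly recognise nucleic acids, whereas Tlr12 recognises the parasite protein profilin. In macrophages, signals from these receptors induce cytokines and interferons through NF-kB and interferon regulatory factors.

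The deposited values are FPKM (fragments scaled to transcript length and library size), 1 pooled value per group. No value per library was used, so no SD can be given, and the depth of each library is unknown from the table. The authors' Cuffdiff test supplies the error, as a statistic, a p-value and a q-value (the p-value adjusted over all tested rows). A row is called here at a q under 0.05. Of the tested rows, 1.32% were called, 0.999% higher and 0.325% lower. An unadjusted p under 0.05 was found in 6.08%, 3.5% higher and 2.58% lower. The median log2 fold change over the tested rows was -0.02.

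One receptor rose and the other 9 members did not pass the test. In the authors' deposited table, Tlr12, the endosomal profilin receptor, went from 7.09 FPKM in MEK1-low to 19.8 FPKM in MEK1-hi. That was a 2.79-fold rise, 1.48 on the log2 scale (Cuffdiff statistic 3.61, q = 0.00676). Its p of 5e-05 is the smallest in the table and is shared by 91 rows. Among the 11350 tested rows with an FPKM of at least 1 in a group, 70 other differences were larger than that of Tlr12 in the upward direction. In the order of levels, Tlr12 exceeded 41.7% of tested rows in MEK1-low and 68.9% in MEK1-hi. The call depended on how the p-values were made and adjusted. With the authors' p-values put through the Benjamini-Yekutieli adjustment in place of their own, the call was lost (adjusted p = 0.0676). Because Tlr12 shares the smallest p, no row of the table can be called under that adjustment, so this loss is not particular to Tlr12. The call of Tlr12 was also lost with p computed from the authors' Cuffdiff statistic and a normal distribution, where the adjusted p was 0.128. Over the alternatives run, the adjusted p ranged from 0.00631 to 0.128. In all, 1 of the 10 members was called, where 1.32% of all tested rows were.

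Tlr12 lies on mm10 chromosome 4 from 128615446 to 128618619, on the minus strand, and the longest GENCODE transcript has 3177 bases. Tlr11 is not one of the 10 members and lies on chromosome 14 from 50357914 to 50363663. Tlr11 also binds profilin and can pair with Tlr12. In the authors' deposited table, Tlr11 was listed at 0.335 FPKM for MEK1-low and 1.37 for MEK1-hi (log2 fold change 2.03, p = 0.001, Cuffdiff q = 0.0684), which did not pass. At so low a level the size of the difference depended on any pseudocount added to the FPKM values. On the log2 scale it was 1.75 with a pseudocount of 0.1 and 0.83 with a pseudocount of 1. Tlr12 stood at 21.2 times the FPKM of Tlr11 in MEK1-low and 14.5 times in MEK1-hi. The remaining mouse receptor in the table, the flagellin receptor Tlr5, was at 8.35 FPKM (MEK1-low) and 5.68 FPKM (MEK1-hi) in the authors' deposited table (log2 fold change -0.56, p = 0.0614, Cuffdiff q = 0.875).

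The sequences before the start sites of Tlr12 and Tlr11 are shown because these receptors had the 2 largest log2 fold changes of the family, and that of Tlr2 because it was the most abundant member. Each is the 250 bases upstream of the RefSeq start site (build GRCm38.p6), written 5′ to 3′ on the strand of the gene. Capitals mark matches to any of the 4 motifs searched on both strands.
Tlr12, chr4:128618620-128618869, minus strand: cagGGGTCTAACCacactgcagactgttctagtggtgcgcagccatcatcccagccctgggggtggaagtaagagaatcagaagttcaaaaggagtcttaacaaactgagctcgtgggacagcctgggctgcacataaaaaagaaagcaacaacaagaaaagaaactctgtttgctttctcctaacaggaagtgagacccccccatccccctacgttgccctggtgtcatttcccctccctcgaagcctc
Tlr11, chr14:50357664-50357913, plus strand: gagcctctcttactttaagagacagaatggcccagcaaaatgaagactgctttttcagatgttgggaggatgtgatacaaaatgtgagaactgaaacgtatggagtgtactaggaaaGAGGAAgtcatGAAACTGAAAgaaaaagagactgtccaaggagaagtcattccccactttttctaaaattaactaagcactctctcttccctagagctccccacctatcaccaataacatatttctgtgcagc
Tlr2, chr3:83841609-83841858, minus strand: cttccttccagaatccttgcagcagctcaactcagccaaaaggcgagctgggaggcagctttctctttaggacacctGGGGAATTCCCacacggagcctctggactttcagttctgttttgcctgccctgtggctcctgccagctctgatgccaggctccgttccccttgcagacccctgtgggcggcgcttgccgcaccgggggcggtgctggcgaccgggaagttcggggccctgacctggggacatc

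The motifs were NF-kB (GGG and CC separated by 5 bases of any kind), the interferon-stimulated response element core (GAAA and GAAA separated by 2 bases of any kind), the STAT site (TTCNNNGAA) and the PU.1 core (GAGGAA). Of 32851 RefSeq windows of the same length, 45.8% held the NF-kB motif, 2.98% the interferon element core, 7.02% the STAT site and 23.3% the PU.1 core. The Tlr12 window held 1 match, to the loose NF-kB motif, at positions -247 to -238 from the start site. The Tlr11 window held an interferon element core at -122 to -113 and a PU.1 core at -133 to -128. In the Tlr2 window, 3 overlapping NF-kB matches lay in 1 stretch from -173 to -163. RefSeq windows were found for 8 of the 10 members, and not for Tlr4 and Tlr7. Among those members, NF-kB matches also lay in Tlr3 and in 1 of the 2 windows of Tlr6, and interferon element cores only in the other window of Tlr6. STAT sites were found in 1 window of Tlr1 and in Tlr8, and PU.1 cores in 1 window of Tlr1 and in Tlr8, Tlr9 and Tlr13. A match is a description of these letters and not of a bound factor.

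**Figure D1:**
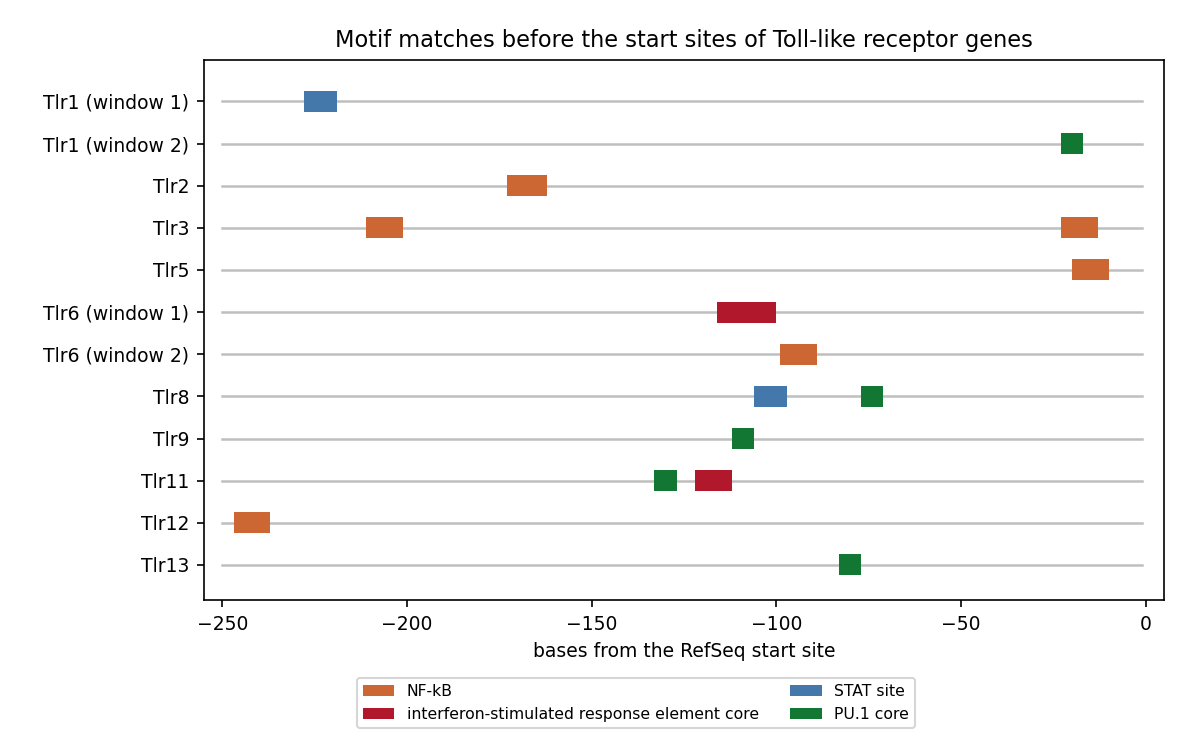
Matches to the 4 motifs in the 250 bases before each RefSeq start site of the Toll-like receptor genes. The horizontal axis is the distance from the start site in bases, each grey line is 1 window, and coloured blocks are matches on either strand. The single match of Tlr12 lies at -247 to -238, and the interferon element core of Tlr11 at -122 to -113.

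The surface receptors were led by Tlr2, which pairs with Tlr1 or Tlr6 to bind bacterial lipopeptides. In the authors' deposited table, the MEK1-low level of Tlr2 was 318 FPKM and the MEK1-hi level 374 (log2 fold change 0.23, Cuffdiff q = 0.9998). This was above 98.6% of tested rows in MEK1-low and 98.8% in MEK1-hi. Tlr2 alone made up 61.4% of the FPKM summed over the 10 members in MEK1-low and 62.5% in MEK1-hi. Its partner Tlr1 had 25.4 and 29.4 FPKM in the same order (log2 fold change 0.21, q = 0.9998), and its other partner Tlr6 had 5.03 and 5.17 (0.04, q = 0.9998). Tlr2 therefore stood at 12.5 times the FPKM of Tlr1 in MEK1-low and 12.7 times in MEK1-hi, and Tlr1 at 5.05 and 5.67 times that of Tlr6. The lipopolysaccharide receptor Tlr4 was listed at 7.04 and 7.76 FPKM (log2 fold change 0.14, q = 0.9998). Its level was lower than that of Tlr2 by 45.2 times in MEK1-low and 48.2 times in MEK1-hi. None of the 4 surface members was called by Cuffdiff and none had an unadjusted p under 0.05. Without a spread over libraries, it cannot be said whether neighbours in this order, such as Tlr4 and Tlr6, differed.

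Tlr1 and Tlr6 lie next to each other on chromosome 5, at 64924680 to 64933558 and 64953106 to 64960048, and 19.5 kb apart. Their GENCODE transcripts share an exact run of 229 bases, longer than a read of 100 bases, so reads from this stretch can be assigned to either gene. It is printed because the levels of these paralogs depend on that assignment. On mm10 it lies at chr5:64925537-64925765 in Tlr1 and chr5:64953828-64954056 in Tlr6, on the minus strand and in coding sequence of both. The whole run is shared, so no base is in capitals.
Tlr1 and Tlr6 shared run: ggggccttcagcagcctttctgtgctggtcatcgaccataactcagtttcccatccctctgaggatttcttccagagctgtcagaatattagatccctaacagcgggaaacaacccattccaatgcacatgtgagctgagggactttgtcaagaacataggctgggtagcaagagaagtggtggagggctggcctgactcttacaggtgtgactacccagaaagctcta

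Exact windows of 100 bases shared with Tlr6 made up 7.89% of those in the Tlr1 transcripts, and 7.09% of those of Tlr6 were shared with Tlr1. These 259 shared windows are more than the printed run holds. The transcripts therefore share other stretches of at least 100 bases, which are not printed. Between any other pair of receptors, Tlr5 and Tlr11 included, the longest shared run was 18 bases. Tlr7 and Tlr8, which also neighbour each other (40.6 kb apart on chromosome X), shared no window of 100 bases.

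The endosomal receptors for nucleic acids did not pass the test. Tlr9, which binds unmethylated CpG DNA, was listed at 45.6 FPKM for MEK1-low and 43.4 for MEK1-hi in the authors' deposited table (log2 fold change -0.07, Cuffdiff q = 0.9998). Tlr13, a receptor for bacterial ribosomal RNA, had 43.4 and 48.1 FPKM (log2 fold change 0.15, q = 0.9998). The single-stranded RNA receptor Tlr7 had 35.3 and 31.8 FPKM (-0.15, q = 0.9998). Its neighbour Tlr8 had 26.3 and 32.9 FPKM (0.32, the authors' p = 0.176, q = 0.9998), the largest log2 fold change among the members that were not called. The level of Tlr7 was 1.34 times that of Tlr8 in MEK1-low and 0.968 times in MEK1-hi, as a ratio of FPKM. The order of that pair thus changed between the groups, although neither gene was called and the change of the ratio was not tested. Tlr3, which binds double-stranded RNA and signals through TRIF alone, was listed at 5.02 and 6.004 FPKM (log2 fold change 0.26, q = 0.9998). An annotated gene on the opposite strand, Gm45542, overlaps the start of Tlr3, and whether the counting used strand is not stated in the labels.

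**Figure D2:**
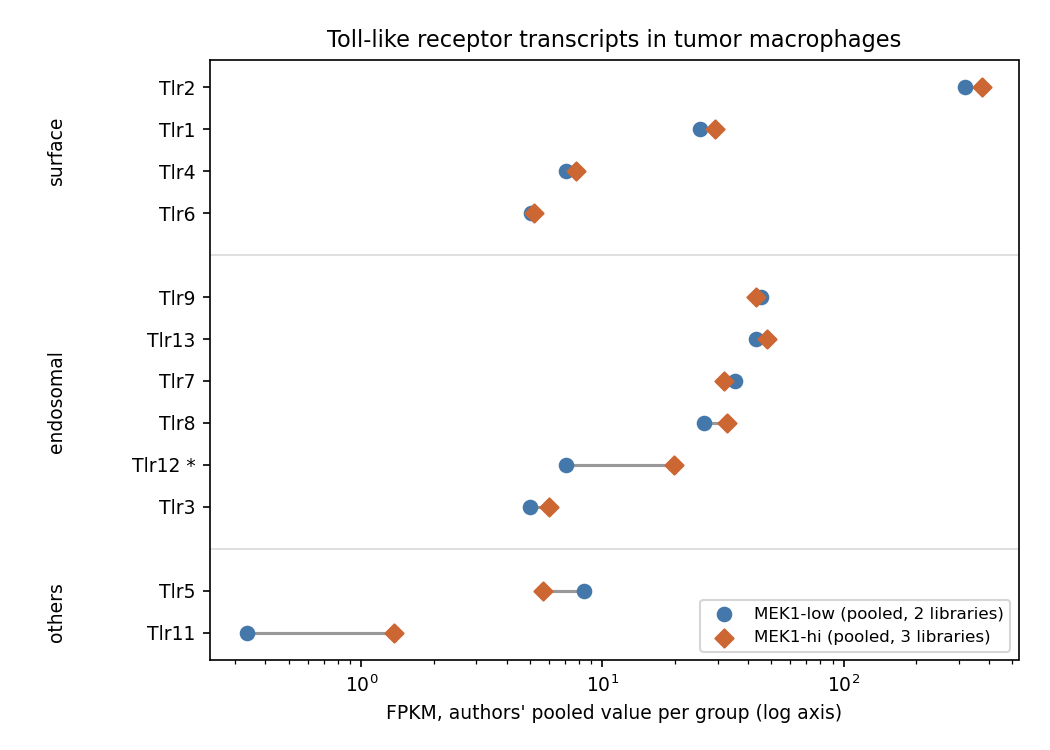
FPKM of each receptor on a log axis, with circles for MEK1-low (authors' pooled value of 2 libraries) and diamonds for MEK1-hi (pooled value of 3 libraries), and no error bars because no value per library was used. The star marks the member called by Cuffdiff at a q under 0.05. Tlr12 moved from 7.09 to 19.8 FPKM, while Tlr2 lay at 318 and 374.

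Compared as groups, surface and endosomal receptors had medians close to each other, and the 1 called member was endosomal. The median log2 fold change was 0.17 over the 4 surface members (range 0.04 to 0.23) and 0.20 over the 6 endosomal members (range -0.15 to 1.48), a difference of medians of 0.03 that was not tested. Without Tlr12, the endosomal median was 0.15 and its difference from the surface median -0.03. All 4 surface members and 4 of the 6 endosomal members lay above 0, where 46.2% of all tested rows did. Scaling the groups to an equal FPKM total over tested rows would lower every log2 fold change by 0.13, which puts Tlr6 at -0.09 and leaves 7 of the 10 members above 0 in place of 8. Tlr12 was at 1.35 after that rescaling. Centring instead on the median of tested rows with an FPKM of at least 1 in a group kept 8 members above 0, with Tlr6 at 0.06. The surface members summed to 356 FPKM in MEK1-low and to 417 in MEK1-hi. For the endosomal members it was 163 and 182, or 156 and 162 without Tlr12, whose share of the sum over all 10 members went from 1.37% to 3.31%. Over the range of mean FPKM that the members span (5.10 to 346), 133 of 7963 tested rows were called, with called log2 fold changes of 0.82 (1.76-fold) and larger in size. The members that were not called had differences of at most 0.32, below every called difference in that range, which does not show that the 9 receptors had equal levels in both groups.

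**Figure D3:**
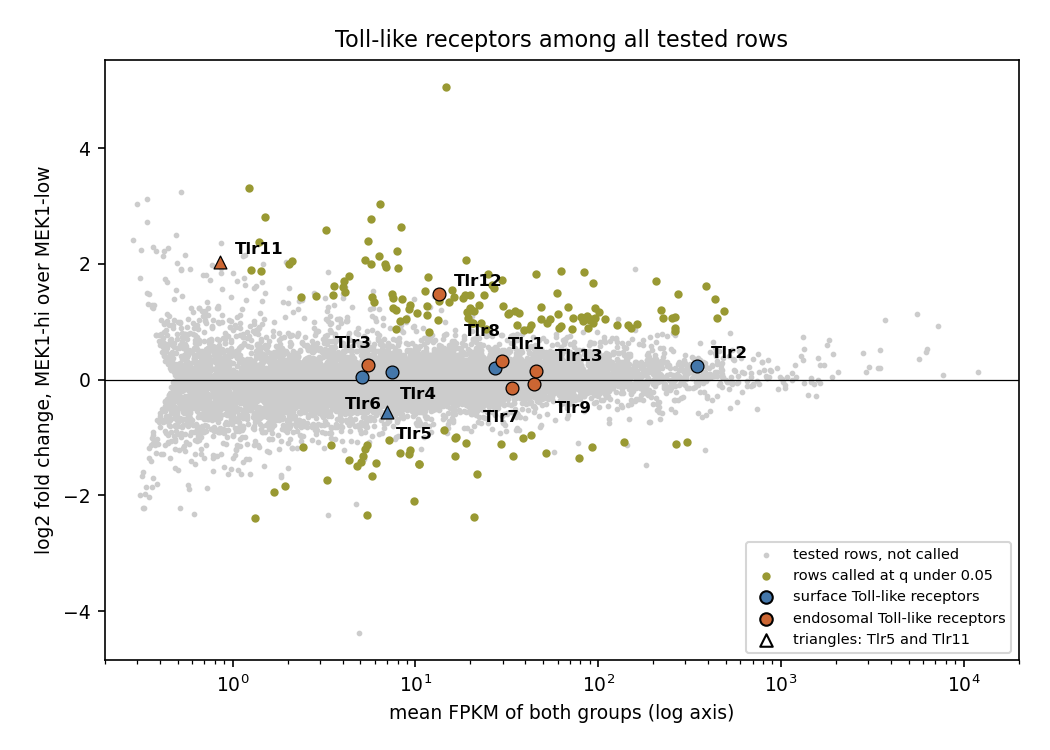
Log2 fold change (MEK1-hi over MEK1-low) against the mean FPKM of both groups on a log axis for all tested rows with a value above 0 in both groups. Grey points were not called, olive points were called at a Cuffdiff q under 0.05, and large blue and orange symbols are surface and endosomal receptors, with triangles for Tlr5 and Tlr11. Of the 10 members, Tlr12 at 1.48 lies among the called rows and the other 9 lie between -0.15 and 0.32.

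Genes that work with the receptors, genes that the receptors induce and other innate sensors were taken from 10 lists holding 155 symbols. These symbols correspond to 152 rows of the table, 148 of them tested. Rnaset2a and Rnaset2b share 1 row. Cuffdiff called 11 higher (Nod1 of the other innate sensors among them) and 1 lower, against 0.999% and 0.325% of all tested rows. The median log2 fold change was 0.14, with 100 genes above 0 and 48 below. The lists include genes that interferon-gamma also induces, and they were chosen with earlier results of these data known, so the count is a description only.

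Among co-receptors and partners at the cell surface, Cuffdiff called 0 of 9 tested genes. At an unadjusted p under 0.05, 3 were higher and 0 lower, against 3.5% and 2.58% of all tested rows. Cd14, which hands lipopolysaccharide to Tlr4, was at 1106 FPKM for MEK1-low and 1003 for MEK1-hi (log2 fold change -0.14, q = 0.9998) in the authors' deposited table. Ly86, the partner of the receptor-like protein Cd180, had 380 and 534 FPKM (0.49, the authors' p = 0.0483, q = 0.806). Named after their values were seen, the other two at an unadjusted p under 0.05 were the scavenger receptor gene Cd36 (0.77, q = 0.134) and the integrin chain gene Itgb2 (0.64, q = 0.372). Ly96, which encodes the MD-2 subunit of the Tlr4 complex and was named for its role, had 21.0 and 26.3 FPKM (q = 0.9998).

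The machinery that folds and carries the receptors had 1 of 17 tested genes called lower and 0 higher, against 0.325% and 0.999% of all tested rows. The median log2 fold change of this list was -0.01. The called gene was Ctsk, the protease cathepsin K, listed in the authors' deposited table at 73.5 FPKM for MEK1-low and 30.5 for MEK1-hi (log2 fold change -1.27, Cuffdiff q = 0.00676). Cathepsin K is also known as a matrix-degrading enzyme of osteoclasts and fibroblasts. Unc93b1, the escort of the endosomal receptors, was named for its role and had 531 and 684 FPKM (0.37, q = 0.9998). Of 7 tested rows for enzymes and proteins that handle nucleic acids, 1 was called higher, where 0.999% of all tested rows were. It was Dnase1l3, a secreted DNase of dendritic cells and macrophages, which went from 13.9 to 46.0 FPKM (1.73, q = 0.00676).

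Of the adaptors, 1 of 6 tested was called higher and 0 lower, against 0.999% and 0.325% of all tested rows. Scimp, a transmembrane adaptor that scaffolds Toll-like receptor signalling and is also known from antigen-presenting cells, rose in the authors' deposited table, with 24.6 and 47.6 FPKM (log2 fold change 0.95, Cuffdiff q = 0.04). The core adaptors, named for their role, were not called, with Myd88 at 41.5 and 51.2 FPKM (0.30, q = 0.9998) and Ticam1, which encodes TRIF, at 25.3 and 29.0 (0.20, q = 0.9998). Of 19 IRAK, TRAF, TAK1 and IKK pathway genes, Cuffdiff called 0, and 0 had an unadjusted p under 0.05. In that list Irak2 had 44.3 and 53.8 FPKM and Tab2 45.3 and 42.5. Of 24 inhibitors, 1 was called higher and 0 lower, against the same shares of all tested rows. An unadjusted p under 0.05 was reached by 3 higher and 1 lower, against 3.5% and 2.58% of all tested rows. The called inhibitor was Socs1, a feedback inhibitor of cytokine as well as Toll-like receptor signalling, which rose from 12.96 to 31.8 FPKM (1.30, q = 0.00676).

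Transcription factors of the pathway had a median log2 fold change of 0.20. Of the 12, 3 were called higher and 0 lower, against 0.999% and 0.325% of all tested rows. The called factors were Irf1 (146 and 305 FPKM in the authors' deposited table, log2 fold change 1.06, Cuffdiff q = 0.0163), Irf8 (61.6 to 114, 0.89, q = 0.0344) and Cebpb (63.4 to 125, 0.98, q = 0.00676). Irf1 and Irf8 are known interferon-gamma-induced factors, and Irf8 also marks cross-presenting dendritic cells. None of the NF-kB subunit genes on the list was called.

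Genes that the receptors induce were split by adaptor. Of 27 tested genes of the MyD88 arm, 1 was called higher and 0 lower, against 0.999% and 0.325% of all tested rows. The median log2 fold change of this arm was 0.21. At an unadjusted p under 0.05, 9 were higher and 3 lower, against 3.5% and 2.58% of all tested rows. The called gene was Acod1, which makes itaconate and also responds to interferon (36.5 and 132 FPKM in the authors' deposited table, 1.85, Cuffdiff q = 0.00676). Classical targets named for their role were not called, with Tnf at 213 and 216 FPKM (log2 fold change 0.02, q = 0.9998) and Il1b at 479 and 612 (0.35, q = 0.9998). Of 15 genes of the TRIF and interferon arm (median 0.05), 3 were called higher and 0 lower, against 0.999% and 0.325% of all tested rows. The called genes of this arm were Cxcl10 (2.10-fold, q = 0.0465), Ccl5 (1.85-fold, q = 0.0315) and Gbp5 (2.41-fold, q = 0.00676), all of which interferon-gamma also induces.

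**Figure D4:**
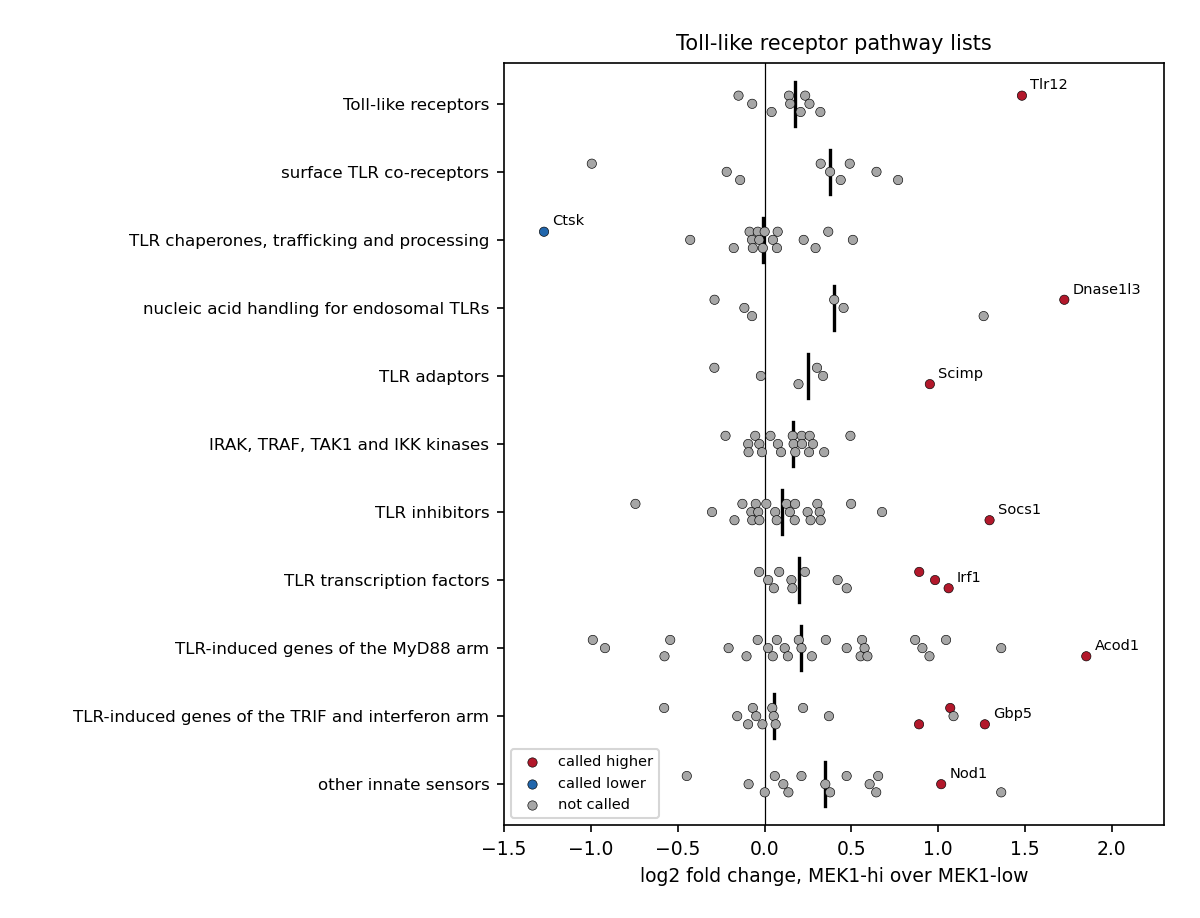
Log2 fold change (MEK1-hi over MEK1-low) of each tested gene in the 10 pathway lists, with the 10 receptors in the top row. Each point is 1 gene, black bars are list medians, and red and blue points were called higher and lower by Cuffdiff at a q under 0.05. The receptors' median is 0.18, and Ctsk at -1.27 is the only gene called lower in these lists.

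The cells in the samples were checked with marker lists. Macrophage markers were abundant in both groups, with Lyz2 at 4999 and 6372 FPKM and C1qa at 3261 and 3758 in the authors' deposited table. The list summed to 16578 FPKM in MEK1-low and to 19346 in MEK1-hi, Cuffdiff called 0 of 11, and 0 had an unadjusted p under 0.05. The macrophage list's median log2 fold change of 0.20 was close to the receptors' median of 0.18. This closeness was not particular to macrophage markers. The medians of the plasmacytoid dendritic cell markers (0.21) and of the pathway's transcription factors (0.20) were also close to it. In bulk RNA, fewer cells of a type and less RNA per cell cannot be told apart.

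Markers of cross-presenting dendritic cells, which are known to express Tlr3, Tlr11 and Tlr12, moved in the same direction as Tlr12. All 8 were tested and lay above 0, where 46.2% of all tested rows did. Cuffdiff called 5 of these markers higher and 0 lower, against 0.999% and 0.325% of all tested rows. The 8 markers summed to 163 FPKM in MEK1-low and to 311 in MEK1-hi, and their median log2 fold change was 0.97. Most of both sums was Naaa and Irf8 (61.6 and 114 FPKM). Irf8, which interferon-gamma also induces, is counted among the called transcription factors above as well. In the authors' deposited table Naaa rose from 57.6 to 119 FPKM (q = 0.0118), and the defining markers Clec9a and Xcr1 went from 0.931 to 5.58 (q = 0.00676) and from 1.53 to 4.17 (q = 0.0163). Tlr3, at 5.02 and 6.004 FPKM, was not called. Monocyte markers had 4 of 11 called higher and 0 lower, against 0.999% and 0.325% of all tested rows. Their sums were 678 and 871 FPKM. Of these markers, 9 lay above 0 and 2 below. At an unadjusted p under 0.05, 5 of them were higher and 1 was lower, against 3.5% and 2.58% of all tested rows. Of their 2 most abundant genes, Plac8 rose (111 and 217 FPKM, q = 0.0344) and Nr4a1 had 309 and 339 FPKM (q = 0.9998). The part of these cells in the rise of Tlr12 was not tested.

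Plasmacytoid dendritic cells are known for Tlr7 and Tlr9 and can also express Tlr12. Their marker list had 0 of 10 called by Cuffdiff. An unadjusted p under 0.05 was reached by 2 higher and 0 lower genes, against 3.5% and 2.58% of all tested rows. The list summed to 489 and 557 FPKM. Most of that sum was Bst2 (437 and 501 FPKM), which interferon induces in many cells, and next in level was the transcription factor gene Tcf4 (24.0 and 21.8 FPKM). Siglech, a defining marker, had 3.65 and 4.20 FPKM (q = 0.9998). B cells are another source of Tlr7 and Tlr9 transcripts. In the authors' deposited table, the B cell receptor chain gene Cd79b had 8.05 and 8.91 FPKM and the transcription factor gene Ebf1 had 2.45 and 1.67 (q = 0.9998 for both), and Cr2 was listed at 0 in MEK1-hi. The 9 B cell genes in the table summed to 11.2 and 11.4 FPKM, and 2 of them were tested, with 0 called and 0 at an unadjusted p under 0.05.

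Fibroblast and tumor cell markers were present and moved the other way. All 10 lay below 0, and 4 were called lower and 0 higher, where 0.325% of all tested rows were called lower. These markers summed to 1329 FPKM in MEK1-low and to 790 in MEK1-hi. Col3a1 had 454 and 290 FPKM and Col1a1 421 and 281, neither called. T and NK cell markers had 0 of 8 tested called. An unadjusted p under 0.05 was reached by 4 higher and 1 lower, against 3.5% and 2.58% of all tested rows. Of these 8, 7 lay above 0, and the median log2 fold change of 1.16 was the highest of the 9 marker lists. Their summed level, 37.8 and 43.3 FPKM, was mostly Cd4 (27.8 and 19.3 FPKM, q = 0.769), which some macrophages and dendritic cells also express. Without Cd4, a choice made after the values were seen, the sum was 10.001 and 23.9 FPKM, with Nkg7, a gene of cytotoxic granules, at 3.00 and 8.66 (q = 0.188). Neutrophil markers had 0 of 5 called, with 1 higher and 2 lower at that threshold (94.0 and 86.1 FPKM), and were led by Csf3r (26.2 and 36.6 FPKM, q = 0.792) and Mmp9 (37.6 and 22.5 FPKM, q = 0.199). Type 2 and migratory dendritic cell markers had 0 of 8 called, with 1 higher and 1 lower at that threshold (399 and 411 FPKM), and were led by Sirpa (280.4 and 309 FPKM, q = 0.9998) and Fscn1 (51.8 and 37.8 FPKM, q = 0.942). The part of these cells in the receptors' values was not tested.

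**Figure D5:**
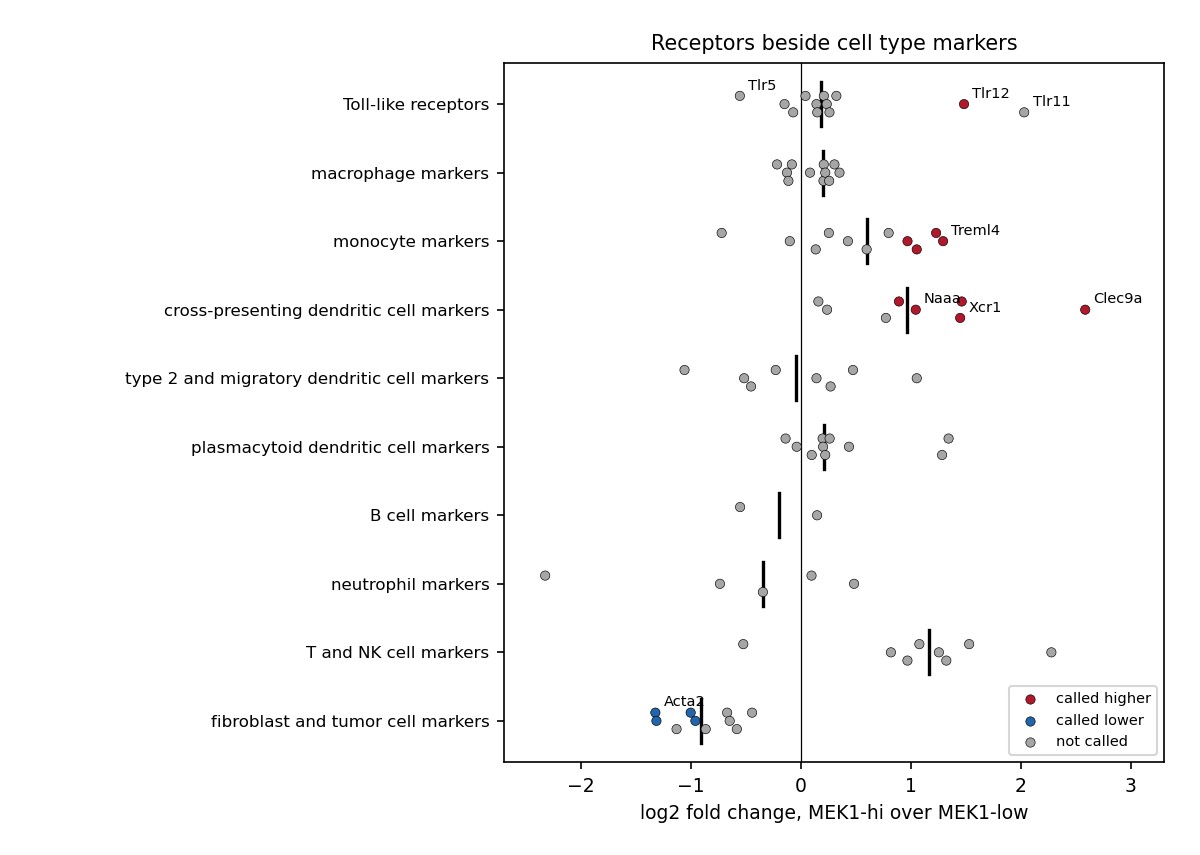
Log2 fold change (MEK1-hi over MEK1-low) of the receptors, with Tlr5 and Tlr11 in the same row, beside each tested gene of the 9 marker lists. Each point is 1 gene, black bars are medians, and red and blue points were called higher and lower by Cuffdiff at a q under 0.05. All 8 markers of cross-presenting dendritic cells lie above 0 and all 10 of fibroblasts and tumor cells below.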

How the data were processed

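RNA of tumor macrophages was sequenced in 3 MEK1-hi and 2 MEK1-low libraries (stranded mRNA kit, paired reads of 100 bases, per the labels' protocols). The submitters' processing notes name FastQC 0.73, TopHat, Cufflinks, Cuffdiff and mm10, without roles. The FPKM values are as the authors deposited them, 1 per group. The p-value and q-value are the authors' own, and the Cuffdiff test statistic is a score the authors deposited. For the annotation and the counting settings, nothing was given in the sources used here.

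Log2 fold changes were computed here from FPKM without a pseudocount, because the deposited column of them holds spreadsheet error text in some cells. Genes were called by the authors' q at 0.05 over all 12311 tested rows. No test was added, because genes are not replicates. FPKM pooled over libraries gives no counts, so no interval or detection limit is given.

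The members and lists were chosen with earlier results of these data known. Of the list symbols, 255 were found, 2 of them through RefSeq synonyms, and 4 were not. A symbol with several rows took the more abundant. The text names all receptors in the table, all called genes of each pathway list (or, with none, the 2 most abundant), and in each marker list the 2 most abundant and those listed at 0. Genes outside this rule were named for their role or after their values were seen, among them Clec9a, Xcr1 and Siglech.

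Alternatives changed the threshold, adjustment, source of p, FPKM filter, pseudocount and scaling. Loci are the authors', on mm10, written 1-based. Transcripts came from GENCODE M21 and promoter windows from RefSeq (GRCm38.p6). Protein sequences were not used here. Helper functions were tested on simulated data. Versions used were matplotlib 3.10.9, scipy 1.17.1, pandas 2.3.3 and numpy 2.4.6, under Python 3.11.15.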

Additional observations from a re-analysis of the deposited data

How the results depend on the processing

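The count of 1 called member was the same at a q of 0.01 and 0.1, at an unadjusted p under 0.05 and among rows with an FPKM of at least 1. It was 0 under the Benjamini-Yekutieli adjustment, where no row of the table could be called. It was also 0 with p from the Cuffdiff statistic and a normal distribution, an alternative added after seeing the data, for which the cause was not tested. Over the pathway lists, 12 genes were called at a q of 0.05 and 35 at an unadjusted p under 0.05, a looser threshold by construction. The difference between endosomal and surface medians ran from -0.03 without Tlr12 to 0.12 with Tlr5 and Tlr11, the 2 settings added after seeing the data.

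No member's direction reversed under a pseudocount of 0.1 or 1, and under equal FPKM sums only Tlr6, which was not called, changed sign. Leaving out a library could not be run on pooled values. No paired analysis was possible because the deposited table has 1 pooled value per group. Depth per library, and so the limit of detection, is unknown.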

Other observations

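Innate sensors outside the Toll-like receptor family were also measured. Of 15 tested, Cuffdiff called 1 higher and 0 lower, where 0.999% of all tested rows were called higher. An unadjusted p under 0.05 was reached by 6 higher and 0 lower, where 3.5% of all tested rows were higher at that threshold. The median log2 fold change was 0.35, beside -0.02 over all tested rows. The called gene was Nod1, a cytosolic sensor of bacterial peptidoglycan, listed in the authors' deposited table at 5.44 FPKM for MEK1-low and 11.0 for MEK1-hi (log2 fold change 1.02, q = 0.0163). Its relative Nod2 had 9.05 and 14.2 FPKM (0.65, the authors' p = 0.0081, q = 0.286), which did not pass over all tested rows. The RNA sensor genes Ddx58 (17.3 and 16.2 FPKM) and Ifih1 (20.3 and 21.9 FPKM) were not called (q = 0.9998 for both). Nod2, Ddx58 and Ifih1 were named after their values were seen.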
